A study of Mus musculus with 30 samples.

Results

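The genes of the aminoacyl-tRNA synthetases, 34 of the 30142 genes tested, were followed in the mouse uterus after estradiol or insulin-like growth factor 1 (IGF1). Members were the probe sets with a single gene symbol of the form of 1 capital letter and ars, with or without a closing 1 or 2, together with Eprs, Farsa and Farsb. They comprised 18 cytosolic and 16 mitochondrial enzymes, each read by 1 probe set. The probe set of Aars also carried Exosc6 and was left out. Other synthetase genes not among the 34 are not analysed here, apart from Tarsl2, which is counted in a list of partner genes. Gars and Kars, each the source of both a cytosolic and a mitochondrial enzyme, were counted as cytosolic.

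An aminoacyl-tRNA synthetase joins 1 amino acid to its tRNA, the step that fixes the genetic code before the ribosome is reached. Cytosolic enzymes serve the translation of nuclear messages, while mitochondria import a separate set, mostly encoded by the genes whose symbols end in 2, for the few proteins of their own genome. Several cytosolic enzymes sit together in a multisynthetase complex held by AIMP scaffold proteins. Many of the cytosolic genes are known targets of ATF4, the transcription factor of the amino acid response, and the uterus is known for a burst of RNA and protein synthesis after estrogen.

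The study compared female mice, 21 days old, of 2 genotypes: Ex3aERKO mice (KO), whose estrogen receptor alpha is knocked out, and wild type mice (WT). In each genotype, 17β-estradiol (E2) was injected once into the peritoneum at 250 ng in 100 ul saline and uteri were taken 2 h or 24 h later. IGF1 was injected at 50 ug in PBS, once for uteri taken at 2 h, and 3 times (at 0, 8 and 16 h) for uteri taken at 24 h. Vehicle uteri, after 100 ul saline, were taken 24 h after injection. There were 3 arrays in each of 10 groups, so few that precision is limited. Nothing in the labels ties a replicate to an animal of its own, so p-values measure the spread between these samples. Comparisons of 2 h with vehicle also hold the time after injection. Those of IGF1 with vehicle or with E2, at either time, also hold the fluid. Those of IGF1 at 24 h also hold the number of injections and the time since the last, which was at 16 h for IGF1. In a whole organ, fewer cells of a type and less RNA per cell cannot be told apart.

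Values are deposited log2 values. Differences are log2 differences ± SE from limma between groups of n = 3, and a gene was called, and said to rise or fall, at an adjusted p under 0.05 over all genes tested in that comparison. The median of all genes tested ran from 6.17 to 6.47 over the arrays, and a background floor, the 95th percentile of 1083 olfactory receptor genes, from 5.66 to 6.55. The targeted gene, Esr1, lay between 9.38 and 10.41 on KO arrays and between 11.44 and 12.73 on WT arrays, a limited check since its probe set may lie outside exon 3. WT vehicle replicate 1 stood apart, with Xist at 10.16 against 17.01 to 18.12 on every other array and the lowest mean correlation with its group (r = 0.975). KO E2 24 h replicate 2 had the highest median and floor and the lowest smooth muscle markers. Counts without both arrays are given for the comparisons that hold one of them. Of the ovary markers, Amh and Zp3 were above the floor on no array, Gdf9 on 8, Inha on 25 and Star on 28. Among epithelial markers 9 of 10 were above the floor on all 30.

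All 18 cytosolic genes and 10 of the 16 mitochondrial genes were above the floor on all 30 arrays. Of the rest, Tars2 and Vars2 passed it on 29 arrays, Mars2 on 28, Ears2 on 27, Sars2 on 8 and Aars2, the alanine enzyme of mitochondria, on 1. The low level of these 6 genes limits what could be seen for them. Averaged over the 18 cytosolic genes and set to 0 in WT vehicle, the arrays of WT E2 24 h stood at 1.35, 1.57 and 1.49 log2 units, and those of WT IGF1 2 h at 1.11, 1.66 and 1.24. The 16 mitochondrial genes stood at 0.26, 0.40 and 0.25 in WT E2 24 h and at most at 0.06 in WT IGF1 2 h. On every one of these 6 arrays the cytosolic mean thus lay over the mitochondrial mean, whereas the WT vehicle arrays ran from -0.12 to 0.07 for the cytosolic and from -0.05 to 0.07 for the mitochondrial genes.

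**Figure D1:**
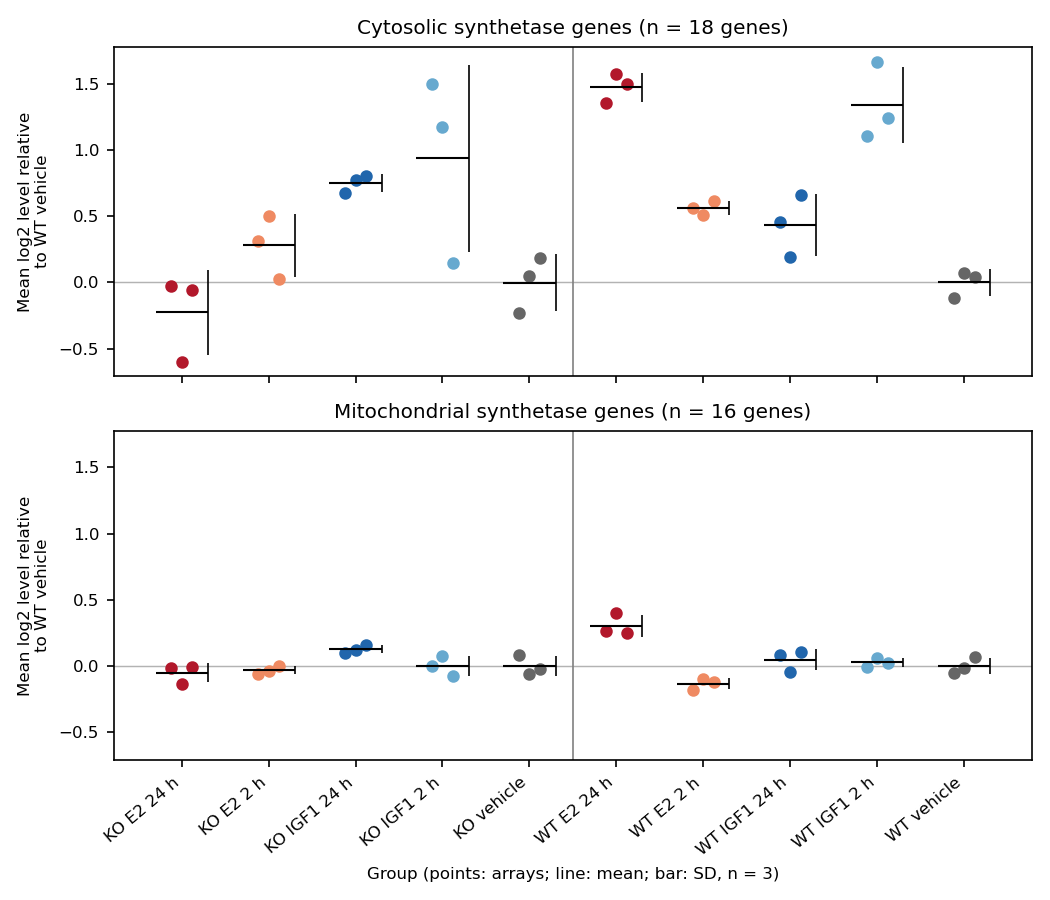
Mean log2 level of the 18 cytosolic (top) and 16 mitochondrial (bottom) synthetase genes on each array, relative to the mean of the WT vehicle arrays, for the 5 KO groups and the 5 WT groups. Points are arrays, lines are group means and bars the SD (n = 3). The 3 WT E2 24 h arrays sit between 1.35 and 1.57 for the cytosolic genes and between 0.25 and 0.40 for the mitochondrial genes, and KO IGF1 2 h spreads from 0.14 to 1.50 for the cytosolic genes.

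**Figure D2:**
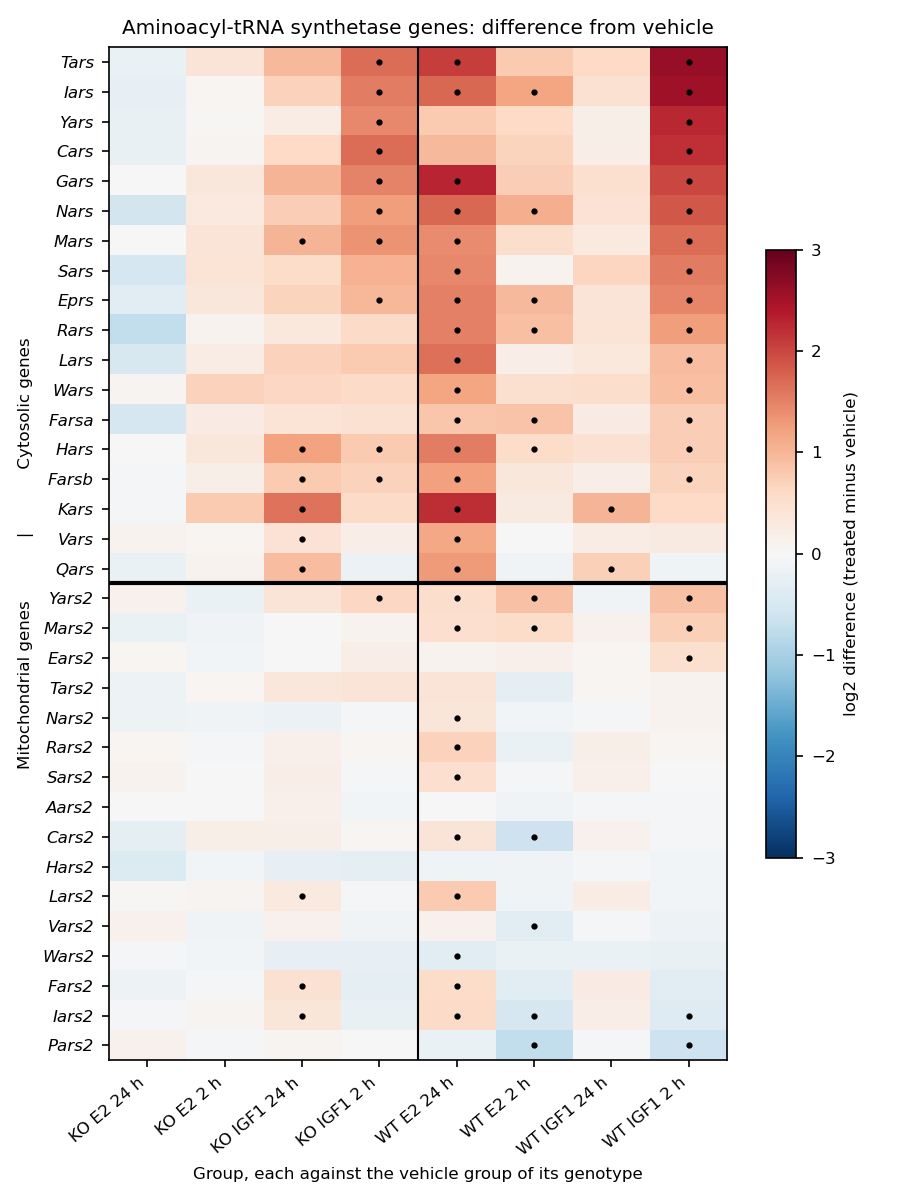
Log2 difference from the vehicle group of the same genotype for the 34 synthetase genes (rows, cytosolic above mitochondrial, ordered by the difference in WT IGF1 2 h) in 4 KO and 4 WT comparisons (columns). Black dots mark genes called at adjusted p under 0.05. WT E2 24 h has 26 dots and WT IGF1 2 h has 20, while both KO E2 columns have 0.

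A day after E2, nearly the whole cytosolic set had risen in WT uteri. The call was made for 16 of 18 cytosolic genes, all upward, and for 9 mitochondrial genes upward and 1 downward of 16, beside calls for 30.1% of all genes tested (16.8% higher and 13.3% lower). The cytosolic median was 1.47, the mitochondrial median 0.39 and that of all genes -0.10. Among the 12950 genes above the floor on all arrays, 31% were called higher. Yars and Cars, at 0.78 ± 0.34 for Yars and 0.98 ± 0.44 for Cars, were the only cytosolic genes not called here, and both had an unadjusted p under 0.05.

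Gars, which charges glycine, read 12.11, 12.37 and 12.54 in WT E2 24 h, against 10.18, 10.03 and 9.98 in WT vehicle. Kars, the lysine enzyme, read 12.93, 13.22 and 12.97 in WT E2 24 h, against 10.25, 11.11 and 11.13 in WT vehicle. Tars, for threonine, read 10.73, 11.04 and 11.06 in WT E2 24 h, against 8.46, 9.02 and 9.13 in WT vehicle. In all 3 genes every E2 array lay over every vehicle array by more than 1 log2 unit. Iars, for isoleucine, read 10.55, 10.71 and 10.69 in WT E2 24 h, against 8.75, 9.06 and 8.96 in WT vehicle, again with no overlap. The differences were 2.28 ± 0.36 for Gars (4.85-fold higher, adjusted p = 3.95e-05), 2.21 ± 0.28 for Kars (4.61-fold higher, adjusted p = 1.45e-06), 2.07 ± 0.43 for Tars (4.21-fold higher, adjusted p = 0.000683) and 1.73 ± 0.34 for Iars (3.31-fold higher, adjusted p = 0.000345). Among the remaining called cytosolic genes the difference ran from 0.84 for Farsa (the alpha subunit of the phenylalanine enzyme) to 1.73 for Nars (asparagine).

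The mitochondrial rises were smaller. Lars2, for leucine, read 7.96, 8.00 and 8.06 in WT E2 24 h, against 7.15, 7.28 and 7.20 in WT vehicle. Rars2, for arginine, read 10.43, 10.24 and 10.10 in WT E2 24 h, against 9.24, 9.67 and 9.77 in WT vehicle. Iars2, for isoleucine, read 8.91, 9.06 and 9.06 in WT E2 24 h, against 8.24, 8.62 and 8.47 in WT vehicle. None of these overlapped between the groups, and the Lars2 arrays were the tightest. The differences were 0.79 ± 0.09 for Lars2 (1.73-fold higher, adjusted p = 3.86e-07), 0.70 ± 0.14 for Rars2 (1.62-fold higher, adjusted p = 0.000411) and 0.56 ± 0.11 for Iars2 (1.48-fold higher, adjusted p = 0.000425). Fars2, Yars2, Mars2, Cars2 and Nars2 also rose, by 0.55 for Fars2 down to 0.35 for Nars2. Wars2, the tryptophan enzyme, fell, at -0.34. Sars2, for serine, was above the floor in E2 and within background on all 3 vehicle arrays, so its rise is only bounded, at least 1.06-fold, the mean of the E2 arrays against the vehicle floor. Leaving out both arrays that stood apart left 16 cytosolic genes higher, and 6 mitochondrial genes higher and 1 lower, with medians of 1.35 and 0.34.

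Markers of the uterine epithelium, stroma and smooth muscle moved with this rise. Of 10 epithelial markers 8 were called higher, with a median difference of 2.59, and their mean level was 11.31 to 11.38 on the WT E2 24 h arrays, against 8.83 to 9.13 on the WT vehicle arrays. Foxa2, a marker of the glands, was near the floor throughout and above it on 13 arrays. Of 7 stromal markers 3 were called higher and 1 lower (median 1.22), with means of 13.06 to 13.22 in WT E2 24 h and 11.83 to 12.28 in WT vehicle. Of 6 smooth muscle markers 2 were called higher (median 1.18), with means of 15.27 to 15.49 in WT E2 24 h and 13.42 to 14.43 in WT vehicle. The means of all 3 lists were apart between the groups, and their part in the synthetase result was not tested.

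At 2 h after E2, fewer genes had moved and the mitochondrial set was divided. In WT, 6 of 18 cytosolic genes rose and none fell, while 2 of 16 mitochondrial genes rose and 4 fell, beside calls for 19% of all genes tested (9.84% higher and 9.18% lower). The medians were 0.58 for cytosolic, -0.15 for mitochondrial and -0.09 for all genes. Iars read 10.14, 9.94 and 10.21 in WT E2 2 h, with the vehicle values as above. Nars read 13.84, 13.67 and 13.81 in WT E2 2 h, against 12.79, 12.64 and 12.62 in WT vehicle. Both lay wholly over vehicle. Eprs, the joint glutamate and proline enzyme, read 12.24, 12.13 and 12.24 in WT E2 2 h, against 10.90, 11.38 and 11.43 in WT vehicle. Rars, for arginine, read 12.33, 12.59 and 12.59 in WT E2 2 h, against 11.33, 11.74 and 11.74 in WT vehicle. In Rars and Eprs the lowest E2 array also exceeded the highest vehicle array. The differences were 1.17 ± 0.34 for Iars (2.25-fold higher, adjusted p = 0.0138), 1.09 ± 0.35 for Nars (2.12-fold higher, adjusted p = 0.0311), 0.96 ± 0.25 for Eprs (1.95-fold higher, adjusted p = 0.00767) and 0.90 ± 0.24 for Rars (1.87-fold higher, adjusted p = 0.00719). Farsa and Hars (histidine) were the other called cytosolic genes, at 0.86 for Farsa and 0.55 for Hars.

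Among the mitochondrial genes Yars2, for tyrosine, read 9.34, 9.26 and 9.23 in WT E2 2 h, against 8.45, 8.38 and 8.34 in WT vehicle. Pars2, for proline, read 6.12, 6.15 and 6.16 in WT E2 2 h, against 6.62, 6.72 and 7.33 in WT vehicle. Cars2, for cysteine, read 7.58, 7.77 and 7.85 in WT E2 2 h, against 8.22, 8.31 and 8.54 in WT vehicle. Yars2 was thus higher on every E2 array, while Pars2 and Cars2 were lower on every E2 array, and the vehicle arrays of Pars2 were widely spread. The differences were 0.89 ± 0.15 for Yars2 (1.85-fold higher, adjusted p = 0.000144), -0.74 ± 0.17 for Pars2 (1.68-fold lower, adjusted p = 0.00243) and -0.63 ± 0.12 for Cars2 (1.54-fold lower, adjusted p = 0.000416). Mars2 (methionine) rose as well, by 0.55, and Iars2 and Vars2 fell, at -0.51 for Iars2 and -0.31 for Vars2. Of the stromal markers, 5 of 7 fell in this comparison (median -1.79), with means of 10.50 to 10.75 on the E2 arrays and 11.83 to 12.28 on the vehicle arrays, and their part in the result was not tested. The count of called members was 12, and 7 without E2 replicate 3 or without vehicle replicate 1. It was 9 without the 2 arrays that stood apart, when Iars was no longer called (1.09, adjusted p 0.0553). Nars lost its call whichever 1 of the 6 arrays was left out (1.06 to 1.14, adjusted p 0.0569 to 0.089). Iars lost it without E2 replicate 3 or vehicle replicate 1 (1.09 to 1.12, adjusted p 0.0518 to 0.0541), and Eprs without vehicle replicate 1 (0.80, adjusted p 0.0538).

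Set directly against 2 h, the 24 h E2 uteri were higher in 11 of 18 cytosolic and 10 of 16 mitochondrial genes and lower in none, beside calls for 27.4% of all genes tested (17% higher and 10.4% lower). This comparison holds no vehicle array. The Kars values of WT E2 2 h were 11.04, 11.23 and 11.05, all under the 24 h values given above. The Gars values at 2 h were 10.69, 10.81 and 10.89. Lars, for leucine, read 12.11, 12.48 and 12.14 in WT E2 24 h, against 10.68, 10.79 and 10.91 in WT E2 2 h. In each of these genes the times were separated by more than 1 log2 unit. The differences were 1.93 ± 0.28 for Kars (3.82-fold higher, adjusted p = 6.94e-06), 1.54 ± 0.36 for Gars (2.91-fold higher, adjusted p = 0.00213) and 1.45 ± 0.28 for Lars (2.73-fold higher, adjusted p = 0.000296). Farsa, with -0.02 ± 0.16 and a 95% interval of -0.34 to 0.31, was not called.

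Iars2 read 8.91, 9.06 and 9.06 in WT E2 24 h, against 7.75, 8.02 and 8.02 in WT E2 2 h. Cars2 read 8.58, 8.99 and 8.68 in WT E2 24 h, against 7.58, 7.77 and 7.85 in WT E2 2 h. Lars2 read 7.96, 8.00 and 8.06 in WT E2 24 h, against 7.13, 7.09 and 7.09 in WT E2 2 h. All 3 were higher on every 24 h array, and the Lars2 arrays of each time lay close together. The differences were 1.08 ± 0.11 for Iars2 (2.11-fold higher, adjusted p = 6.44e-08), 1.02 ± 0.12 for Cars2 (2.02-fold higher, adjusted p = 4.25e-07) and 0.90 ± 0.09 for Lars2 (1.87-fold higher, adjusted p = 3.57e-08). Cars2 and Iars2 thus lay under vehicle at 2 h and over vehicle at 24 h, each called in both comparisons, which share the vehicle arrays. Yars2, at -0.35 ± 0.15, was not called (adjusted p = 0.0979). The markers differed between the times as well. Epithelial markers were called higher at 24 h in 9 of 10 cases (median 2.04), with means of 11.31 to 11.38 at 24 h and 9.05 to 9.62 at 2 h, and stromal markers in 6 of 7 (median 2.19), with means of 13.06 to 13.22 at 24 h and 10.50 to 10.75 at 2 h. Smooth muscle means were 15.27 to 15.49 at 24 h and 14.13 to 14.47 at 2 h, with 1 of 6 markers called higher. Their part in the result was not tested.

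After 2 h of IGF1 most cytosolic genes were higher in WT uteri, with the highest single differences of all comparisons with vehicle, while the mitochondrial genes were divided. In WT, 15 of 18 cytosolic genes rose and none fell, and 3 of 16 mitochondrial genes rose and 2 fell, beside calls for 17.2% of all genes tested (9.54% higher and 7.64% lower). The medians were 1.36 for cytosolic, -0.03 for mitochondrial and -0.08 for all genes. Kars, Vars (valine) and Qars (glutamine) were not called, at 0.60 ± 0.28 for Kars, 0.26 ± 0.11 for Vars and -0.13 ± 0.15 for Qars. Tars read 11.20, 11.87 and 11.36 in WT IGF1 2 h. Iars read 11.00, 11.99 and 11.37 in WT IGF1 2 h. With the vehicle values given above, neither gene overlapped with vehicle.

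Yars, for tyrosine, read 10.10, 11.24 and 10.32 in WT IGF1 2 h, against 8.34, 8.30 and 8.27 in WT vehicle. Cars, for cysteine, read 8.84, 10.33 and 9.14 in WT IGF1 2 h, against 7.49, 7.20 and 7.03 in WT vehicle. Both were far over vehicle on every IGF1 array, and in both genes, as in Tars and Iars, replicate 2 was the highest. The differences were 2.61 ± 0.43 for Tars (6.09-fold higher, adjusted p = 0.000151), 2.53 ± 0.34 for Iars (5.79-fold higher, adjusted p = 1.88e-05), 2.25 ± 0.34 for Yars (4.77-fold higher, adjusted p = 6.88e-05) and 2.20 ± 0.44 for Cars (4.59-fold higher, adjusted p = 0.000837). That replicate also had the highest adipocyte and neutrophil marker means of its group (12.32 and 10.12, against 9.09 and 6.82 on the next array). The limma fit called none of the 4 adipocyte markers (0 at an unadjusted p under 0.05) and none of the 4 neutrophil markers (1) in the comparison. Epithelial markers were higher in 4 of 10 cases (means of 9.41 to 9.58 in WT IGF1 2 h and 8.83 to 9.13 in WT vehicle) and smooth muscle markers in 1 of 6 (means of 14.53 to 15.12 in IGF1 and 13.42 to 14.43 in vehicle). The part of these markers in the result was not tested. Without the 2 arrays that stood apart, 13 cytosolic genes were higher, with a median of 1.20, and 3 mitochondrial genes were higher and 2 lower. With array weights 3 mitochondrial genes were higher and 4 lower.

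Among the mitochondrial genes 5 were called. Yars2 read 9.13, 9.18 and 9.48 in WT IGF1 2 h. Mars2 read 6.68, 7.03 and 6.50 in WT IGF1 2 h, against 5.71, 6.20 and 6.17 in WT vehicle. Pars2 read 6.47, 6.21 and 6.16 in WT IGF1 2 h. Yars2 and Mars2 lay over every vehicle array, though vehicle replicate 1 of Mars2 was under the floor, and Pars2 lay under every vehicle array. The differences were 0.87 ± 0.15 for Yars2 (1.83-fold higher, adjusted p = 0.000273), 0.71 ± 0.17 for Mars2 (1.64-fold higher, adjusted p = 0.00492) and -0.61 ± 0.17 for Pars2 (1.53-fold lower, adjusted p = 0.0135). Ears2 (glutamate) rose by 0.49 and Iars2 fell, at -0.39. The isoleucine pair moved in opposite directions, Iars up and Iars2 down, while the tyrosine pair, Yars and Yars2, moved up together. Pars2 lost its call without IGF1 replicate 2, IGF1 replicate 3 or vehicle replicate 3 (-0.39 to -0.58, adjusted p 0.0535 to 0.113), and on arrays centred on their medians.

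Split by their standing as known ATF4 targets, all 11 of 11 measured targets rose after 2 h of IGF1 (median 1.85), and 4 of the 7 other cytosolic genes (median 0.67). After 24 h of E2 the counts were 9 of 11 (median 1.50) and 7 of 7 (median 1.27). The split was drawn up with earlier results of these data known, so it is a description. Of the 26 measured genes of the integrated stress response and ATF4, 19 rose and none fell after 2 h of IGF1. They included 3.23 for Slc7a5, 3.00 for Slc7a1, 2.98 for Mthfd2 and 2.85 for Asns, that is 2 amino acid transporters, a mitochondrial folate enzyme and asparagine synthetase. Atf4 itself, named after its value was seen, stood at 2.38. After 2 h of E2, 8 rose and 2 fell, led by 4.90 for Slc7a5, 2.18 for Atf4, 2.07 for Atf3 and 1.89 for Slc7a1. Of all genes tested, 9.54% were called higher and 7.64% lower after 2 h of IGF1. The shares were 9.84% and 9.18% after 2 h of E2, and 16.8% and 13.3% after 24 h of E2.

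Promoter sequences were available for 25 of the 34 genes in the RefSeq table (GRCm38.p6, 250 bases before to 50 after the start), 11 cytosolic and 14 mitochondrial. The 8 letters TGATGNAA, the core of the composite element bound by ATF4, were searched on both strands. They were found in 4 of 11 cytosolic windows (36.4%), in 0 of 14 mitochondrial windows and in 4.51% of 27018 genes with a window. The 4 were Gars, Iars, Tars and Yars, all known ATF4 targets. The windows of the 3 other known targets with a window (Eprs, Mars and Sars) and of the 4 other cytosolic genes held none. CACGTG, the E-box, was in 3 of 11 cytosolic windows (27.3%), in 1 of 14 mitochondrial windows and in 8.09% of all. The palindromic estrogen response element was in none of the 25 and in 0.074% of all. A match is a run of letters, not a shown binding site. The 4 windows with the core are shown from 80 bases before to 30 after the start, then Kars, which was called in WT after 24 h of E2 but not after 2 h of IGF1, and Yars2, a mitochondrial gene that rose after 2 h of either treatment. Capitals mark the core, as its reverse complement in Gars, Iars and Tars, and the E-box.
Gars: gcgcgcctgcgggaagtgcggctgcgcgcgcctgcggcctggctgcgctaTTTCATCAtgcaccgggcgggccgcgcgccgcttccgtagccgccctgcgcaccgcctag
Iars: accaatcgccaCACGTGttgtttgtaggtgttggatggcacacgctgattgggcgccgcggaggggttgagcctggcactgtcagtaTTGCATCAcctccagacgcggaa
Tars: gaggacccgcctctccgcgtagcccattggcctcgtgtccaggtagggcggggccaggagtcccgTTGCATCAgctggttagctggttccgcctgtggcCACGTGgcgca
Yars: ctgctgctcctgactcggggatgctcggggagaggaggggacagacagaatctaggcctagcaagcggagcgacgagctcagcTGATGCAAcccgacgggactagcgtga
Kars: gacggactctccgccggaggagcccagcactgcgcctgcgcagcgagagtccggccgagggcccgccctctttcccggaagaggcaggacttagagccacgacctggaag
Yars2: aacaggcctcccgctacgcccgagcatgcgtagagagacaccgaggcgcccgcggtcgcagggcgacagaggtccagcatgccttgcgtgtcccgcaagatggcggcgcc
They lie at chr6:55037921-55038030 (plus strand), chr13:49682050-49682159 (plus), chr15:11399629-11399738 (minus), chr4:129189823-129189932 (plus), chr8:112011325-112011434 (minus) and chr16:16302885-16302994 (plus). The start site being +1, the core begins at -30 in Gars, +8 in Iars, -15 in Tars and +4 in Yars, and the E-box at -69 in Iars and +20 in Tars. Gars, Iars, Tars and Yars were 4 of the 5 genes with the highest differences after 2 h of IGF1 in WT, the other being Cars. Cars had no window, nor had Hars, Lars, Nars, Rars, Vars and Wars. Eprs, Mars and Sars, with windows but no core, rose in that comparison as well. Whether the core had a part in the rise was not tested.

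After repeated IGF1, read at 24 h, few synthetase genes were called in WT. There, 2 cytosolic genes and no mitochondrial gene were called, both upward, beside calls for 4.28% of all genes tested (3.32% higher and 0.962% lower), and the cytosolic median was 0.42. Kars read 11.84, 11.73 and 12.02 in WT IGF1 24 h, each over every vehicle array. Qars read 9.31, 9.29 and 9.05 in WT IGF1 24 h, against 8.26, 8.59 and 8.63 in WT vehicle, again with no overlap. The differences were 1.03 ± 0.28 for Kars (2.04-fold higher, adjusted p = 0.0328) and 0.72 ± 0.15 for Qars (1.65-fold higher, adjusted p = 0.0076). Qars lost its call without vehicle replicate 1 or IGF1 replicate 1 (0.61 to 0.68, adjusted p 0.0504 to 0.0552). Kars lost it without either of these or IGF1 replicate 3 (0.74 to 1.04, adjusted p 0.12 to 0.213), and without the 2 arrays that stood apart (0.74, adjusted p 0.155), which left 1 called member. Marker means lay wholly over WT vehicle for 4 lists. They were 9.46 to 9.63 in WT IGF1 24 h and 8.83 to 9.13 in WT vehicle for epithelium (1 of 10 called higher), and 12.78 to 13.09 in IGF1 and 11.83 to 12.28 in vehicle for stroma (2 of 7). For smooth muscle they were 15.22 to 15.63 in WT IGF1 24 h and 13.42 to 14.43 in WT vehicle (2 of 6), and for neutrophils 6.66 to 7.95 in IGF1 and 5.85 to 6.19 in vehicle, with no neutrophil marker called by limma (0 at an unadjusted p under 0.05). Their part in the result was not tested.

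Against 2 h of IGF1, 10 cytosolic genes were lower and 1 higher at 24 h, and 4 mitochondrial genes were higher and 3 lower, beside calls for 14.5% of all genes tested (7.94% higher and 6.57% lower). The 24 h values of Iars were 9.43, 9.0 and 9.71. Those of Yars were 8.48, 8.28 and 8.68, and those of Tars 9.53, 9.15 and 9.71. All lay under the lowest 2 h array of their gene. The differences were -2.07 ± 0.34 for Iars (4.21-fold lower, adjusted p = 0.000154), -2.07 ± 0.34 for Yars (4.21-fold lower, adjusted p = 0.000198) and -2.02 ± 0.43 for Tars (4.04-fold lower, adjusted p = 0.00206). Of the 11 known ATF4 targets 8 were lower, and of the 7 others 2 were lower and 1, Qars, higher, at 0.85 ± 0.15. On arrays centred on their medians, and after quantile normalization, 2 mitochondrial genes were higher and 3 lower. Stromal markers were higher at 24 h in 4 of 7 cases, with means of 12.78 to 13.09 at 24 h and 11.53 to 12.18 at 2 h, and smooth muscle markers in 2 of 6 (15.22 to 15.63 at 24 h and 14.53 to 15.12 at 2 h), and their part in the result was not tested.

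Yars2 read 8.49, 8.06 and 8.32 in WT IGF1 24 h. Iars2 read 8.58, 8.58 and 8.78 in WT IGF1 24 h, against 8.05, 8.09 and 8.03 in WT IGF1 2 h. Mars2 read 6.17, 6.28 and 6.06 in WT IGF1 24 h. Against 2 h, Yars2 and Mars2 were lower and Iars2 higher on every array. The differences were -0.98 ± 0.15 for Yars2 (1.97-fold lower, adjusted p = 0.000116), 0.59 ± 0.11 for Iars2 (1.5-fold higher, adjusted p = 0.000748) and -0.57 ± 0.17 for Mars2 (1.48-fold lower, adjusted p = 0.0266). Mars2 lost its call without IGF1 2 h replicate 1 or 2 or without IGF1 24 h replicate 1 or 3 (-0.42 to -0.60, adjusted p 0.0537 to 0.172). Fars2, Pars2 and Lars2 were higher at 24 h, at 0.56 for Fars2, 0.55 for Pars2 and 0.32 for Lars2, and Ears2 was lower, at -0.44.

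**Figure D3:**
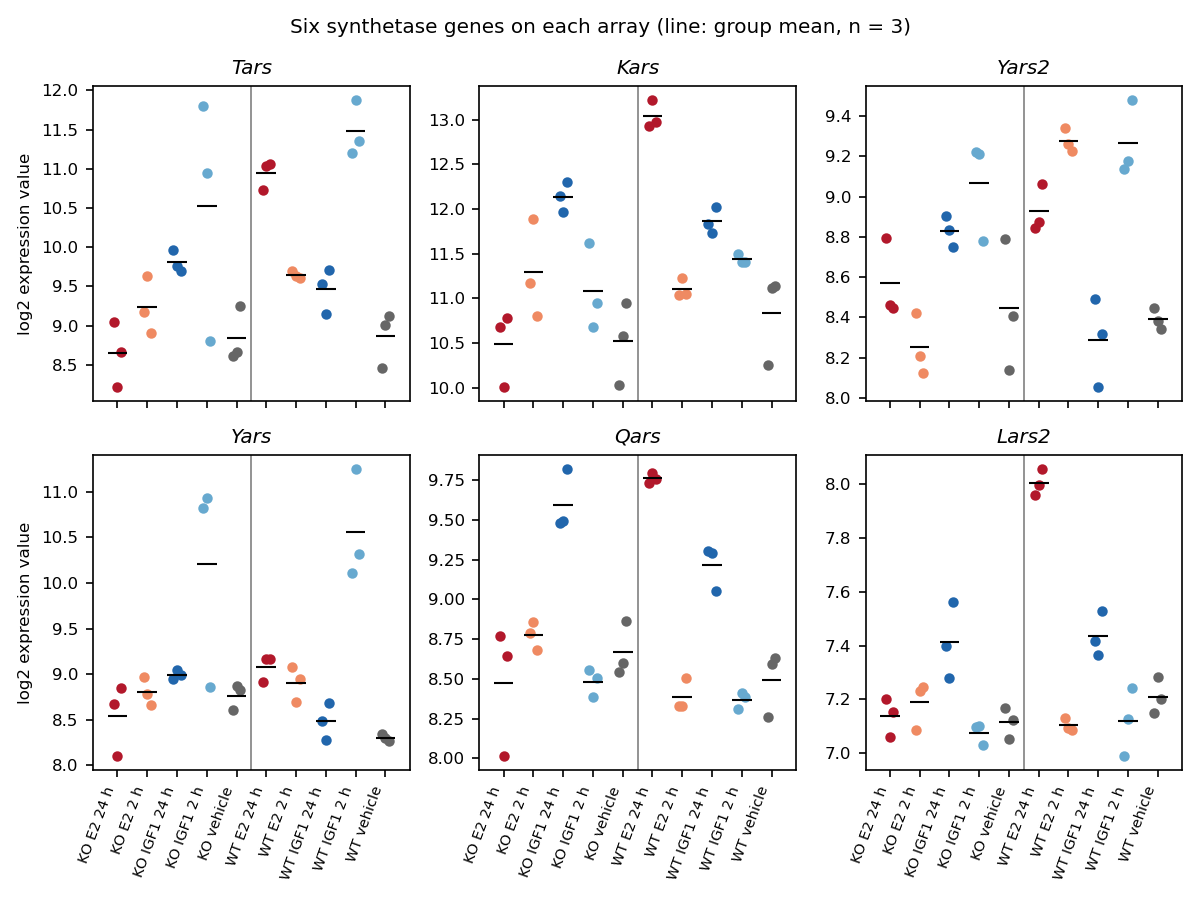
Log2 expression value of 6 synthetase genes on each of the 30 arrays, KO groups left and WT groups right, with a line at the group mean (n = 3). By group mean, Tars and Yars are highest in WT IGF1 2 h, Kars, Qars and Lars2 are highest in WT E2 24 h, and Yars2 stands over vehicle at 2 h in WT E2, WT IGF1 and KO IGF1.

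The treatments were next compared with each other in WT, which leaves out the vehicle. These comparisons also hold the fluid, and at 24 h the number of injections and the time since the last. At 2 h, E2 uteri were lower than IGF1 uteri in 7 of 18 cytosolic and 2 of 16 mitochondrial genes and higher in none, beside calls for 5.57% of all genes tested (2.8% higher and 2.77% lower). Tars read 9.70, 9.64 and 9.61 in WT E2 2 h, all under the IGF1 2 h values given above. Yars read 9.08, 8.70 and 8.95 in WT E2 2 h, and Cars 7.95, 7.71 and 8.08 in WT E2 2 h, again under every IGF1 array. The differences were -1.83 ± 0.43 for Tars (3.56-fold lower, adjusted p = 0.00837), -1.65 ± 0.34 for Yars (3.13-fold lower, adjusted p = 0.00281) and -1.52 ± 0.44 for Cars (2.87-fold lower, adjusted p = 0.0372). Sars, Iars, Gars and Mars followed, at -1.47 for Sars, -1.36 for Iars, -1.26 for Gars and -1.16 for Mars. All 7 belong to the 11 known ATF4 targets, while 0 of the 7 other cytosolic genes were called, with differences from -0.35 to 0.13.

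Cars2 differed as well, by -0.59 ± 0.12 (1.5-fold lower, adjusted p = 0.00203), its IGF1 2 h arrays reading 8.30, 8.27 and 8.40. Ears2 read 6.21, 6.33 and 6.27 in WT E2 2 h, against 6.50, 6.66 and 6.67 in WT IGF1 2 h. The Ears2 groups did not overlap, and the difference was -0.34 ± 0.09 (1.27-fold lower, adjusted p = 0.0244). For Yars2 the difference between treatments was 0.01 ± 0.15, with an interval of -0.30 to 0.33. The count of 9 called members was 2 without IGF1 replicate 2 (Yars and Cars2), 4 without E2 replicate 1 or 3, and 5 without E2 replicate 2 or IGF1 replicate 3. Tars lost its call without IGF1 replicate 2 (-1.63, adjusted p 0.0556), and Ears2 without E2 replicate 1 or 3 or IGF1 replicate 2 or 3 (-0.31 to -0.34, adjusted p 0.0808 to 0.127). Cars lost it without any of the 6 arrays but IGF1 replicate 1 (-1.08 to -1.67, adjusted p 0.0571 to 0.264). Of the stromal markers 4 of 7 were called lower in E2 than in IGF1 at 2 h (median -1.83). Means lay wholly lower in E2 for smooth muscle (14.13 to 14.47, against 14.53 to 15.12 in IGF1) and endothelium (9.42 to 9.61, against 9.69 to 9.94). The same held for neutrophils (5.89 to 6.17, against 6.60 to 10.12), while epithelial, macrophage and adipocyte means overlapped. The part of these markers in the result was not tested.

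At 24 h the called differences had the opposite sign. E2 uteri were higher than IGF1 uteri in 14 cytosolic and 6 mitochondrial genes and lower in none, beside calls for 10.1% of all genes tested (7.59% higher and 2.49% lower). The Gars arrays of WT IGF1 24 h read 10.65, 10.17 and 10.83, and the Lars arrays 10.71, 10.78 and 11.20. Those of both genes, and of Tars, lay under every E2 24 h array. The differences were 1.79 ± 0.36 for Gars (3.47-fold higher, adjusted p = 0.00173), 1.48 ± 0.43 for Tars (2.79-fold higher, adjusted p = 0.0268) and 1.34 ± 0.28 for Lars (2.54-fold higher, adjusted p = 0.00221). The 7 other cytosolic genes were all higher in E2, from 0.55 for Qars to 1.18 for Kars.

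Yars2 read 8.84, 8.87 and 9.06 in WT E2 24 h, over every IGF1 24 h array. Lars2 read 7.42, 7.36 and 7.53 in WT IGF1 24 h, and Rars2 9.94, 9.65 and 9.63 in WT IGF1 24 h, all under E2. The differences were 0.64 ± 0.15 for Yars2 (1.56-fold higher, adjusted p = 0.00741), 0.57 ± 0.09 for Lars2 (1.48-fold higher, adjusted p = 0.000121) and 0.52 ± 0.14 for Rars2 (1.43-fold higher, adjusted p = 0.0154). The count of 20 called members was 9 without IGF1 replicate 2, 11 without E2 replicate 3, 12 without E2 replicate 2 and 13 after quantile normalization. Tars lost its call without E2 replicate 2 or 3 or IGF1 replicate 1 or 2 (1.32 to 1.52, adjusted p 0.0562 to 0.135). Rars2 lost it without E2 replicate 1 or IGF1 replicate 2 or 3 (0.43 to 0.47, adjusted p 0.0705 to 0.088), and Yars2 without IGF1 replicate 2 (0.52, adjusted p 0.0739). Of the epithelial markers 6 of 10 were also higher in E2 (median 1.78), with means of 11.31 to 11.38 in E2 and 9.46 to 9.63 in IGF1, and their part in the result was not tested.

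**Figure D4:**
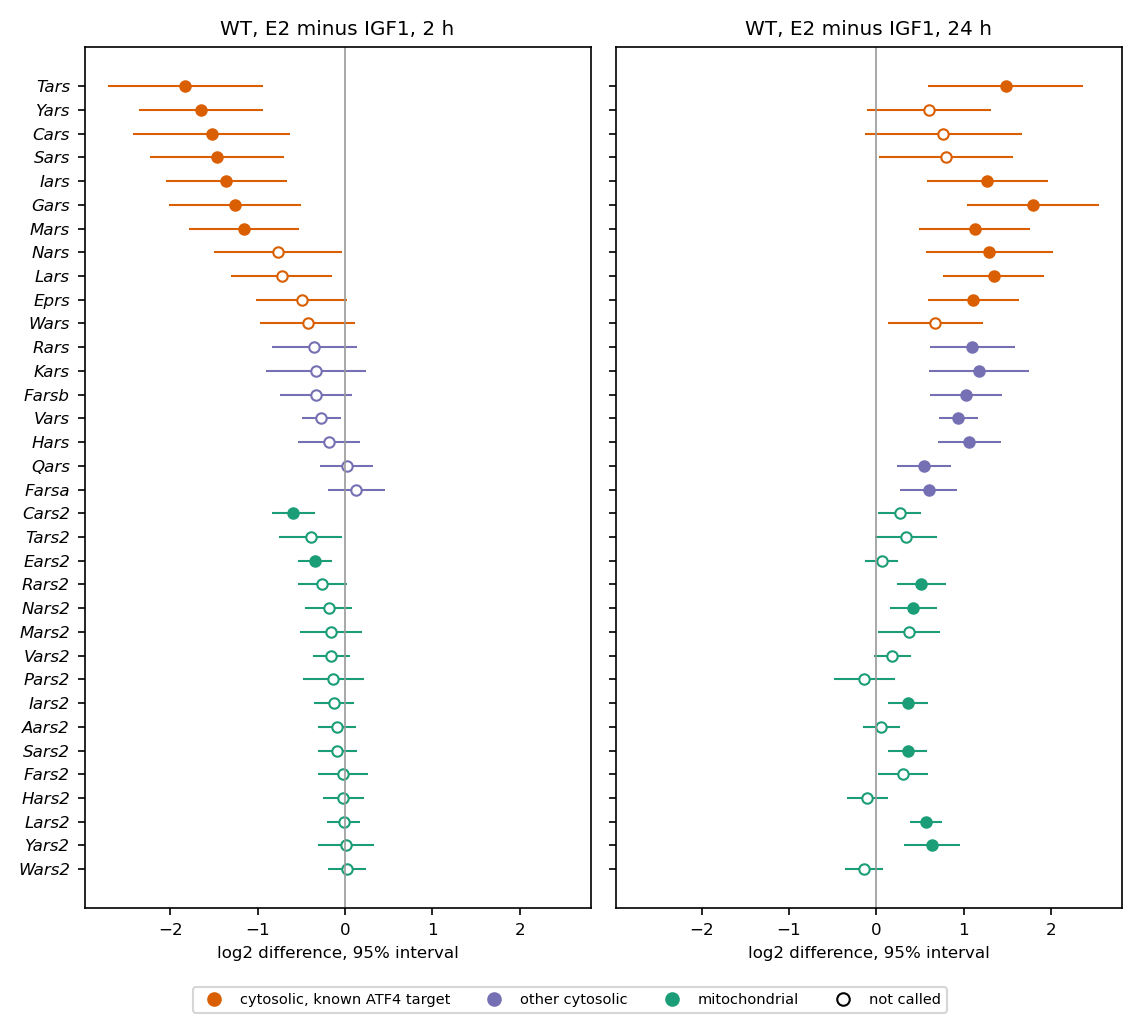
E2 minus IGF1 in WT uteri at 2 h (left) and 24 h (right) for each synthetase gene, as log2 difference with its 95% interval. Colours give known ATF4 targets, other cytosolic genes and mitochondrial genes, and filled points are called. At 2 h the 7 called cytosolic genes lie left of 0, and at 24 h the 14 called cytosolic genes lie right of it.

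In KO uteri E2 called no synthetase gene at either time. At 24 h the limma count was 0 of 34 and 0 of all genes (0%), with Rars, Farsa, Hars2 and Cars2 at an unadjusted p under 0.05, all lower, at -0.75 for Rars, -0.50 for Farsa, -0.41 for Hars2 and -0.26 for Cars2, and the medians were -0.21 and -0.02. The cytosolic mean was -0.60 on KO E2 24 h replicate 2, against -0.03 and -0.06 on the other E2 arrays, and without the arrays that stood apart the cytosolic median was 0.01. At 2 h it was 0 of 34 beside calls for 0.365% of all genes tested (0.259% higher and 0.106% lower), with Wars and Kars at an unadjusted p under 0.05, at 0.69 for Wars and 0.77 for Kars. Differences at 2 h started from -0.19 for Yars2, and the median of the cytosolic genes was 0.27. Leaving out KO E2 2 h replicate 3 gave 1 called member, Wars, at 1.06 (adjusted p = 0.0357). In KO E2 2 h, Wars read 8.25, 9.34 and 7.70 and Kars 11.17, 11.89 and 10.81, replicate 2 being the highest in both. That replicate also had the highest macrophage and neutrophil marker means of its group (9.69 and 10.51, against 7.97 and 7.28 on the next array). The part of these markers in the result was not tested. Between KO and WT vehicle uteri limma called no member (0 of 34, beside calls for 2.92% of all genes tested (1.61% higher and 1.3% lower)), with Cars2 and Mars2 at an unadjusted p under 0.05, at -0.28 for Cars2 and 0.38 for Mars2, and 95% intervals that reached from -0.94 to 1.17 over the 34 genes. Without the 2 arrays that stood apart the limma counts stayed at 0 for KO E2 24 h and for KO against WT vehicle. Epithelial markers were called higher in KO than in WT vehicle in 4 of 10 cases (median 1.26), with means of 9.70 to 10.10 in KO and 8.83 to 9.13 in WT. Stromal means were lower in KO vehicle, 11.10 to 11.66 against 11.83 to 12.28 in WT. Macrophage means were lower as well, 7.28 to 8.00 in KO and 8.13 to 8.39 in WT. The part of these markers was not tested.

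Whether E2 changed a gene by a different amount in KO than in WT was tested as an interaction (the KO difference from vehicle less the WT difference from vehicle). At 24 h it was lower in 16 of 18 cytosolic and 7 of 16 mitochondrial genes and higher in none, beside calls for 22.1% of all genes tested (9.96% higher and 12.2% lower). The medians were -1.67 for cytosolic, -0.46 for mitochondrial and 0.19 for all genes. Nars read 12.51, 11.63 and 12.46 in KO E2 24 h, against 12.27, 13.00 and 13.01 in KO vehicle, and 14.23, 14.56 and 14.45 in WT E2 24 h, beside the WT vehicle values above. Gars read 10.61, 9.69 and 10.26 in KO E2 24 h, against 10.03, 10.19 and 10.36 in KO vehicle. Tars read 9.05, 8.22 and 8.67 in KO E2 24 h, against 8.61, 8.67 and 9.26 in KO vehicle. In all 3 genes the KO groups overlapped while the WT groups did not, and KO E2 replicate 2 was the lowest KO array. The interactions were -2.29 ± 0.50 for Nars (adjusted p = 0.00216), -2.28 ± 0.52 for Gars (adjusted p = 0.00286) and -2.27 ± 0.61 for Tars (adjusted p = 0.00991).

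Lars2 read 7.20, 7.06 and 7.15 in KO E2 24 h, against 7.17, 7.05 and 7.12 in KO vehicle. Mars2 read 6.35, 6.14 and 6.15 in KO E2 24 h, against 6.86, 6.08 and 6.30 in KO vehicle, and 6.41, 6.63 and 6.60 in WT E2 24 h. Fars2, for phenylalanine, read 8.31, 8.29 and 8.60 in KO E2 24 h, against 8.56, 8.56 and 8.55 in KO vehicle, and 9.03, 9.50 and 9.0 in WT E2 24 h, against 8.64, 8.62 and 8.62 in WT vehicle. The KO groups overlapped in each of these genes, and the WT groups did not. The interactions were -0.77 ± 0.13 for Lars2 (adjusted p = 0.000137), -0.71 ± 0.24 for Mars2 (adjusted p = 0.0396) and -0.71 ± 0.20 for Fars2 (adjusted p = 0.0123). Without the 2 arrays that stood apart, the count was 12 cytosolic and 2 mitochondrial genes, with medians of -1.41 and -0.39, and Tars (-1.85, adjusted p 0.0773) and Mars2 (-0.52, adjusted p 0.211) were no longer called. Mars2 also lost its call without WT vehicle or KO vehicle replicate 1, or without replicate 2 or 3 of WT E2 or of KO E2 (-0.49 to -0.68, adjusted p 0.0636 to 0.125). The epithelial markers went with the interaction in 7 of 10 cases (lower, median -2.70), and their part in it was not tested. Stromal markers were called lower in 2 of 7 cases (median -1.11) and smooth muscle markers in 3 of 6 (median -1.92), and their part was not tested either.

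**Figure D5:**
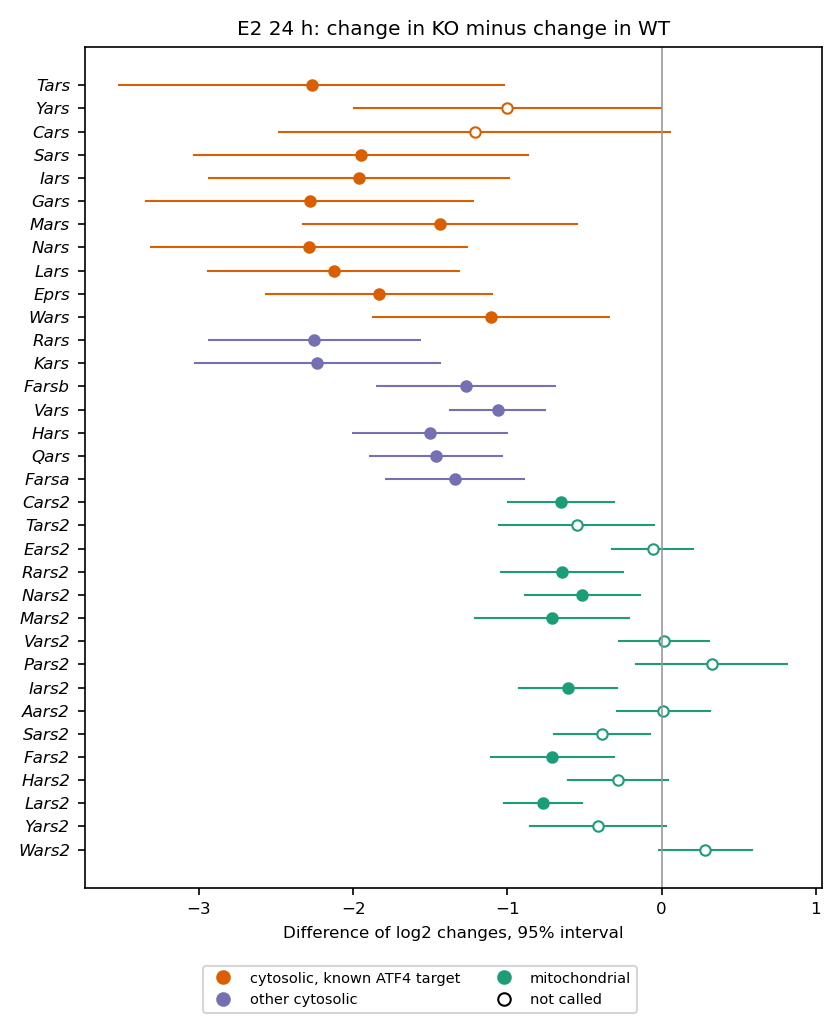
Interaction of genotype with 24 h of E2 (KO difference from vehicle less WT difference) for each synthetase gene, on the log2 scale with its 95% interval. Colours give known ATF4 targets, other cytosolic genes and mitochondrial genes, and filled points are called. The 16 called cytosolic genes lie between -2.29 and -1.06 and the 7 called mitochondrial genes between -0.77 and -0.51.

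At 2 h the interaction was called for no cytosolic gene (3 at an unadjusted p under 0.05) and for 3 mitochondrial genes, beside calls for 8% of all genes tested (3.61% higher and 4.39% lower). Yars2 read 8.42, 8.21 and 8.12 in KO E2 2 h, against 8.79, 8.14 and 8.40 in KO vehicle. Cars2 read 8.41, 8.20 and 8.15 in KO E2 2 h, against 8.12, 8.07 and 8.05 in KO vehicle. Iars2 read 8.43, 8.34 and 8.32 in KO E2 2 h, against 8.27, 8.19 and 8.36 in KO vehicle, and in WT uteri 7.75, 8.02 and 8.02 in WT E2 2 h, against 8.24, 8.62 and 8.47 in WT vehicle. The KO groups overlapped in Yars2 and Iars2 and barely parted in Cars2, whereas the WT groups parted in all 3. The interactions were -1.08 ± 0.22 for Yars2 (adjusted p = 0.0021), 0.80 ± 0.17 for Cars2 (adjusted p = 0.00312) and 0.60 ± 0.16 for Iars2 (adjusted p = 0.0173). Iars2 lost its call without WT E2 replicate 1 or WT vehicle replicate 2 (0.51, adjusted p 0.0563 to 0.0683), when no other group entered the fit (adjusted p 0.0849), and on arrays centred on their medians, which left 1 gene higher (Cars2) and 1 lower (Yars2). Without the 2 arrays that stood apart the count was 4, Pars2 being the gene added (0.83, adjusted p 0.0314). Among cytosolic genes Iars had -1.12 ± 0.47 (interval -2.10 to -0.14, adjusted p = 0.177). It was called lower when no other group entered the fit (-1.12, adjusted p 0.0072) and with array weights (-1.07, adjusted p 0.0385), when Farsa (-0.64, adjusted p 0.0177) and Rars (-0.76, adjusted p 0.0351) were called lower too. Stromal markers were called higher in this interaction in 5 of 7 cases (median 1.54) and endothelial markers in 2 of 5 (median 0.76), and their part in it was not tested.

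IGF1 raised synthetase genes in KO uteri too. At 2 h, 10 of 18 cytosolic genes and 1 mitochondrial gene rose, beside calls for 7.13% of all genes tested (4.19% higher and 2.95% lower), with a cytosolic median of 0.90. Tars read 11.80, 10.95 and 8.81 in KO IGF1 2 h, against 8.61, 8.67 and 9.26 in KO vehicle. Cars read 9.68, 9.84 and 7.05 in KO IGF1 2 h, against 7.02, 7.40 and 7.16 in KO vehicle. Iars read 11.47, 11.53 and 9.48 in KO IGF1 2 h, against 9.34, 9.28 and 9.24 in KO vehicle. Replicate 3 was low in all 3 genes and within the vehicle range for Tars and Cars, while replicates 1 and 2 were high. The differences were 1.68 ± 0.43 for Tars (3.19-fold higher, adjusted p = 0.0191), 1.67 ± 0.44 for Cars (3.17-fold higher, adjusted p = 0.0212) and 1.54 ± 0.34 for Iars (2.91-fold higher, adjusted p = 0.00722). Yars2 read 9.22, 9.21 and 8.78 in KO IGF1 2 h, where replicate 3 again fell within the vehicle range, for a difference of 0.63 ± 0.15 (1.54-fold higher, adjusted p = 0.0146).

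In KO IGF1 2 h, adipocyte marker means were 11.42, 10.68 and 9.84 on replicates 1, 2 and 3, against 7.89 to 10.49 in KO vehicle. Neutrophil means were 6.75, 7.06 and 8.55 on these replicates, against 5.75 to 6.67 in KO vehicle. The part of both lists in the result was not tested. The cytosolic mean of KO IGF1 2 h replicate 3 was 0.14, against 1.50 and 1.17 for replicates 1 and 2. The count of 11 called members was 16 without it, 0 without replicate 1, 1 without replicate 2 (Hars), 5 without KO vehicle replicate 1, 7 without KO vehicle replicate 2, and 0 when only the compared groups entered the fit. Tars lost its call without IGF1 replicate 1 or 2 or KO vehicle replicate 1 or 2 (1.04 to 1.59, adjusted p 0.0693 to 0.214), and Cars without IGF1 replicate 1 or 2 or KO vehicle replicate 1 or 3 (1.18 to 1.65, adjusted p 0.0564 to 0.198). Iars lost it without IGF1 replicate 1 or 2 (1.19 to 1.22, adjusted p 0.0595 to 0.0876), and Yars2 without these or KO vehicle replicate 2 (0.47 to 0.55, adjusted p 0.0749 to 0.116). The interaction of genotype with IGF1 at 2 h was called for 0 of 34 members, beside calls for 0.0133% of all genes tested (0.00664% higher and 0.00664% lower), with 2 cytosolic and 3 mitochondrial genes at an unadjusted p under 0.05, and for 0 without the 2 arrays that stood apart. Its 95% intervals were wide, -1.97 to -0.02 for Iars and -2.19 to 0.32 for Tars.

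At 24 h of IGF1 the KO count was 6 cytosolic and 3 mitochondrial genes, all upward, beside calls for 13.6% of all genes tested (9.28% higher and 4.35% lower). Kars read 12.14, 11.97 and 12.30 in KO IGF1 24 h, against 10.02, 10.58 and 10.95 in KO vehicle. Hars read 9.82, 10.25 and 10.15 in KO IGF1 24 h, against 8.70, 8.73 and 9.15 in KO vehicle. Mars read 8.44, 8.96 and 8.46 in KO IGF1 24 h, against 7.56, 7.57 and 7.66 in KO vehicle. Each group lay wholly over vehicle. The differences were 1.62 ± 0.28 for Kars (3.08-fold higher, adjusted p = 0.000381), 1.21 ± 0.17 for Hars (2.32-fold higher, adjusted p = 9.84e-05) and 1.02 ± 0.31 for Mars (2.03-fold higher, adjusted p = 0.0271). Qars, Farsb and Vars rose as well, at 0.93 for Qars, 0.78 for Farsb and 0.43 for Vars.

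Fars2 read 9.09, 9.05 and 8.91 in KO IGF1 24 h, Iars2 8.55, 8.57 and 8.78 in KO IGF1 24 h and Lars2 7.40, 7.28 and 7.56 in KO IGF1 24 h. All were over their KO vehicle arrays, with no overlap. The differences were 0.46 ± 0.14 for Fars2 (1.37-fold higher, adjusted p = 0.0292), 0.36 ± 0.11 for Iars2 (1.28-fold higher, adjusted p = 0.0332) and 0.30 ± 0.09 for Lars2 (1.23-fold higher, adjusted p = 0.0271). Mars lost its call without any 1 of the 6 arrays but IGF1 replicate 1 (0.85 to 1.10, adjusted p 0.0509 to 0.128), and Fars2 without any but IGF1 replicate 3 (0.42 to 0.46, adjusted p 0.0626 to 0.0916). Iars2 lost it without KO vehicle replicate 1 or 2 or IGF1 replicate 2 or 3 (0.28 to 0.39, adjusted p 0.0534 to 0.175), and Lars2 without KO vehicle replicate 2 or 3 or IGF1 replicate 1 or 3 (0.22 to 0.31, adjusted p 0.0572 to 0.172). After quantile normalization 7 members were called, 6 higher and 1 lower (Hars2), and Fars2, Iars2 and Lars2 were not among them. The count was 5 without KO vehicle replicate 2. Stromal markers rose in the same comparison, 5 of 7 (median 1.39), with means of 12.07 to 12.34 in KO IGF1 24 h and 11.10 to 11.66 in KO vehicle, and 1 fell. Neutrophil means were 7.79 to 10.58 in KO IGF1 24 h and 5.75 to 6.67 in KO vehicle, with 1 of 4 markers called higher (median 2.14). The part of both lists in the result was not tested. The interaction with genotype was called for 0 of 34 members, beside calls for 0.00664% of all genes tested (0% higher and 0.00664% lower), with 2 cytosolic genes and 1 mitochondrial gene at an unadjusted p under 0.05, and for 0 without the 2 arrays that stood apart.

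Of the 8 planned enzymes of the multisynthetase complex, 7 were measured. All 7 rose after 24 h of E2 in WT, and 5 after 2 h of IGF1, the exceptions being Kars and Qars. Of all genes tested, 9.84% were called higher and 9.18% lower after 2 h of E2, 16.8% and 13.3% after 24 h of E2, and 9.54% and 7.64% after 2 h of IGF1. Among the proteins that work with the synthetases, Eef1e1 (also AIMP3) and Aimp2, scaffolds of the complex, rose in WT after 2 h of E2 (2.30 for Eef1e1 and 1.04 for Aimp2), 24 h of E2 (1.98 for Aimp2 and 1.85 for Eef1e1) and 2 h of IGF1 (2.29 for Eef1e1 and 1.30 for Aimp2). Aimp1, another scaffold, was not called after 2 h of E2 (-0.27) or 2 h of IGF1 (-0.28) and rose after 24 h of E2 (0.86). Xpot, the exporter of tRNA from the nucleus, rose by 1.42 after 2 h of IGF1. Dtd2 and Pstk, an editing enzyme and the kinase of the selenocysteine pathway, fell after 2 h of E2, at -1.26 for Dtd2 and -1.21 for Pstk. In all, 6 of 10 partners rose and 1 fell after 24 h of E2, 4 rose and 4 fell after 2 h of E2, and 3 rose and 3 fell after 2 h of IGF1.

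The wider apparatus of mitochondrial translation was described beside the synthetases. After 24 h of E2 in WT, 68 of 75 mitochondrial ribosomal protein genes rose and 1 fell. All genes tested gave 16.8% higher and 13.3% lower. The median of the ribosomal protein genes was 0.91, against the median of 0.39 for the mitochondrial synthetases. Examples were 2.42 for Mrpl42, 2.21 for Mrpl50, 2.06 for Mrpl12 and 1.99 for Mrpl11. Of 8 genes for other steps of mitochondrial charging and elongation, 5 rose, led by the elongation factors 2.29 for Tufm and 1.43 for Gfm1 and by Qrsl1 at 1.39, which helps to make glutaminyl-tRNA in mitochondria. In KO after 24 h of IGF1, 52 of the 75 rose (median 0.75), and 8 in WT, a contrast between genotypes that was not tested for the list. All genes tested were called higher in 9.28% of cases in KO and in 3.32% in WT. The interaction of genotype with 24 h of IGF1 was called for 0.00664% of them. Of 6 cytosolic elongation factor genes, 4 rose after 24 h of E2, led by 2.70 for Eif5a and 1.80 for Eef1g.

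Of the 26 integrated stress and ATF4 genes, 11 rose and none fell after 24 h of E2 in WT, led by 2.69 for Shmt2, 2.53 for Psat1, 2.19 for Slc7a5 and 2.09 for Aldh18a1. These make serine, glycine and proline or carry amino acids into the cell. All genes tested were called higher in 16.8% of cases and lower in 13.3% after 24 h of E2 in WT. After 24 h of IGF1 in WT limma called none of the 26 (3 at an unadjusted p under 0.05), beside calls for 4.28% of all genes tested. In KO 16 rose after 2 h of IGF1, beside 4.19% of all genes tested. The largest rises were 2.48 for Asns, 2.43 for Mthfd2, 2.39 for Chac1 and 2.21 for Slc7a5. In KO, limma called none of the 26 after E2, with 4 at an unadjusted p under 0.05 at 2 h and 2 at 24 h. Nearly all genes tested were likewise not called (0.365% called at 2 h and 0% at 24 h). Set directly against IGF1 at 2 h in WT, E2 was lower in 9 and higher in 1 of the 26. Of all genes tested, 2.77% were called lower and 2.8% higher in this comparison. The largest differences were -2.20 for Nupr1, -2.17 for Asns, -2.08 for Aldh18a1 and -2.04 for Mthfd2.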

How the data were processed

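RNA of 30 whole uteri samples, 300 ng each, was amplified and labelled with the Affymetrix WT Plus kit, per the labels' protocols. The authors deposited 1 log2 expression value per probe set and array; no source used here names the background correction, normalization or summarisation, and those steps bear on every difference. A gene is named from the platform annotation, with 826 symbols updated through RefSeq. Of 72688 probe sets, 30604 carried a single gene symbol. Where a gene had several, the probe set with the highest mean over all arrays was kept, giving 30142 genes. Levels were not compared between probe sets of different genes.

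Group means of the 10 groups (n = 3 arrays each) were fitted with limma 3.58.1 (R 4.3.3; lmFit and eBayes, 20 residual degrees of freedom) and 17 comparisons were drawn, including 4 interactions of genotype with treatment. P-values were adjusted by Benjamini-Hochberg over all genes within a comparison. A gene under the background floor on every array of a group has only a bound there. The code was tested on simulated data. Tables and plots were made with Python 3.11.15, pandas 2.3.3 and matplotlib 3.10.9.

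Array values were printed for the called genes with the largest absolute differences, 4 cytosolic and 3 mitochondrial in each WT comparison with vehicle and up to 3 of each elsewhere. For up to 4 called genes of each further list only the differences were printed. Members and lists were chosen with earlier results of these data known. The replicate numbers shared by the groups come from the sample titles. Same-numbered deviations from the group means correlated over 0.1 for all 3 numbers in KO vehicle with WT vehicle alone (0.433, 0.147 and 0.296). There the numbers may pair the arrays. The fit reported did not use such a pairing, and the alternative with a replicate block also called no member in that comparison. Alternatives were median centring, quantile normalization, a filter on dim genes, the mean of a gene's probe sets, a fit on the compared groups alone, a trended robust prior, array weights, a replicate block and leaving out arrays.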

Additional observations from a re-analysis of the deposited data

Results flagged for a closer look

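Of 136 interactions of a synthetase gene (with E2 or IGF1, at 2 h or 24 h), 26 were called, all of them with E2. An interaction is the KO difference from vehicle less the WT difference (log2, limma adjusted p under 0.05 over all genes). Beside these, the E2 interaction was called for 8% of all genes tested at 2 h and for 22.1% at 24 h. After 24 h of E2 the cytosolic genes gave -2.29 for Nars, -2.28 for Gars, -2.27 for Tars, -2.25 for Rars, -2.23 for Kars and -2.13 for Lars. Those under 2 log2 units in size were -1.96 for Iars, -1.95 for Sars, -1.83 for Eprs, -1.50 for Hars, -1.46 for Qars and -1.44 for Mars. The smallest called cytosolic values were -1.34 for Farsa, -1.27 for Farsb, -1.11 for Wars and -1.06 for Vars. The mitochondrial genes gave -0.77 for Lars2, -0.71 for Mars2, -0.71 for Fars2, -0.65 for Cars2, -0.65 for Rars2, -0.61 for Iars2 and -0.51 for Nars2. Yars and Cars, the tyrosine and cysteine enzymes, were the cytosolic genes without a call. After 2 h of E2 the called values were -1.08 for Yars2, 0.80 for Cars2 and 0.60 for Iars2.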

How the results depend on the processing

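No named gene turned its direction under any alternative run. The balance of called mitochondrial genes did turn in some. It was 0 higher and 1 lower (Hars2, -0.35, adjusted p 0.0331) for KO IGF1 24 h after quantile normalization (3 and 0 in the fit reported), 3 higher and 4 lower for WT IGF1 2 h with array weights (3 and 2), and 2 higher and 3 lower for IGF1 24 h against 2 h after median centring or quantile normalization (4 and 3). Medians within 0.1 of 0 changed sign under some alternatives, and the cytosolic median of KO E2 24 h was 0.01 without replicate 2 (-0.21). Counts of called members moved by more than 1.5 times in these cases. With array weights the WT E2 2 h count was 20 (12 in the fit reported), that of WT IGF1 24 h 5 (2), that of KO against WT vehicle 1 (Cars2; 0) and that of the E2 2 h interaction 7 (3). WT IGF1 24 h gave 1 after quantile normalization (Qars), 0 with only the compared groups and 1 without the 2 arrays that stood apart. With only the compared groups KO IGF1 2 h gave 0 (11). E2 against IGF1 at 24 h gave 13 (20) after quantile normalization, and the E2 24 h interaction 14 (23) without the 2 arrays that stood apart. The cause was not tested, beyond the fewer arrays that some of these fits hold. Leaving out 1 array at a time gave 7 to 10 members for WT E2 2 h, 22 to 26 for WT E2 24 h, 17 to 19 for WT IGF1 2 h, 0 to 2 for WT IGF1 24 h, 0 to 1 for KO E2 2 h, 0 for KO E2 24 h, 0 to 16 for KO IGF1 2 h, 5 to 7 for KO IGF1 24 h and 0 for KO against WT vehicle. It gave 17 to 19 for E2 24 h against 2 h, 12 to 16 for IGF1 24 h against 2 h, 2 to 9 for E2 against IGF1 at 2 h, 9 to 18 for the same at 24 h, 2 to 4 and 18 to 23 for the E2 interactions at 2 h and 24 h, and 0 for both IGF1 interactions. Of the 65 named values, 13 lost their call with only the compared groups, 10 after quantile normalization, 4 without the 2 arrays, 3 after median centring and 1 with array weights. With only the compared groups these were Mars2 and Pars2 in WT IGF1 2 h, Kars and Qars in WT IGF1 24 h, Tars, Cars, Iars and Yars2 in KO IGF1 2 h, Iars2 and Lars2 in KO IGF1 24 h, Ears2 in E2 against IGF1 at 2 h, Iars2 in the E2 2 h interaction and Mars2 in the E2 24 h interaction, which array weights also left uncalled. After quantile normalization they were Nars in WT E2 2 h, Pars2 in WT IGF1 2 h, Kars in WT IGF1 24 h, Fars2, Iars2 and Lars2 in KO IGF1 24 h, Cars in E2 against IGF1 at 2 h, Tars and Rars2 in the same at 24 h and Fars2 in the E2 24 h interaction. Median centring ended those of Pars2 in WT IGF1 2 h, Iars2 in KO IGF1 24 h and Iars2 in the E2 2 h interaction. Centring moved the median of all genes in WT E2 24 h against vehicle to 0.01, against -0.10 as deposited, and in the E2 24 h interaction to 0.00, against 0.19. With the replicate block the counts were 12 for WT E2 2 h, 26 for WT E2 24 h, 20 for WT IGF1 2 h, 2 for WT IGF1 24 h and 22 for the E2 24 h interaction, KO against WT vehicle stayed at 0, and no named gene lost its call. The unstated normalization, 3 arrays a group and the 6 mitochondrial genes near the floor limit what could be seen.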
